A study of Mus musculus with 6 samples.

Results

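The genes of the respiratory chain and ATP synthase were followed in CD4 T cells that had been sorted, as a total population, from spleens of NOD mice aged 12 weeks, a strain that develops autoimmune diabetes. The members were the protein-coding genes of the mitochondrial genome (13 genes) and the nuclear genes whose symbols begin with Nduf followed by a subunit letter and a digit, Uqcr, Cox4 to Cox8 or Atp5 (78 genes). Together they are 91 of the 28914 genes in the table, and they were taken by name, not by their values. No stimulus through the T cell receptor was added. The 6 libraries formed 3 groups of 2: control cells (WT, genotype label WT), cells labelled Blimp-1-deficient (CKO, genotype label Blimp1 knockout) and cells labelled as overexpressing Blimp-1 (BTg). The labels do not give the Cre driver of the CKO, the promoter of the transgene, or whether libraries of a group stem from different mice. The p-values therefore describe the spread among these libraries, which may be technical.

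The respiratory chain moves electrons from NADH and succinate through complexes I to IV to oxygen and pumps protons across the inner mitochondrial membrane, and ATP synthase (complex V) uses that gradient to make ATP. Complexes I, III, IV and V are built from subunits of both genomes: the mitochondrial genome gives a few core membrane subunits, copied as long transcripts of either strand and cut into mRNAs, and nuclear genes give the rest. Complex II is wholly nuclear. Resting T cells depend largely on oxidative phosphorylation, and activation raises both mitochondrial content and glycolysis. Blimp-1, encoded by Prdm1, is a transcriptional repressor of effector lymphocytes.

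The libraries held 14958458 to 17799091 reads counted on genes. Prdm1 stood at 0.458 and 0.628 FPKM in the WT libraries, at 0.849 and 0.669 in the CKO libraries and at 19.6 and 30.1 in the BTg libraries, so the libraries labelled CKO did not have less Prdm1 mRNA than WT over the gene as a whole. FPKM counts fragments relative to gene length and to the reads of the library. CD4 T cell markers were present in all 6 libraries (10 of 10 markers in the table, summed level 1503 to 3050 FPKM). CKO replicate 1 stood apart: 10 of 10 neutrophil markers summed to 7165 FPKM there and to 28.4 to 165 in the other 5 libraries, plasma cell markers (7 of 7) summed to 962 against 95.1 to 255 FPKM, and immunoglobulin segments held 6.99% of its reads against 0.704 to 1.799%. In bulk samples, fewer cells of a type and less RNA per cell cannot be told apart.

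All 13 mitochondrial members were detected in every library, but on levels that differed by orders of magnitude. Of these, 7 members stood between 409 and 9700 FPKM in every library, and the other 6 stood between 0.565 and 73.3 FPKM, a division drawn after the values were seen. The abundant genes were mt-Co1, mt-Cytb, mt-Nd1, mt-Nd2, mt-Nd4, mt-Nd5 and mt-Nd6. The low ones were mt-Atp6, mt-Atp8, mt-Co2, mt-Co3, mt-Nd3 and mt-Nd4l, which are neighbours on the mitochondrial genome (GRCm38, chrM:7013-10173). Values below are listed in the order WT replicates 1 and 2, CKO replicates 1 and 2, BTg replicates 1 and 2.

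The highest member was mt-Co1 (ENSMUSG00000064351, chrM:5328-6872, plus strand), the catalytic core of complex IV. It stood at 9700, 3818, 5380, 3861, 7267 and 3644 FPKM, and alone took 44.97 to 51.7% of the reads on the mitochondrial set. In each group the library numbered 1 was the higher, and the groups overlapped. For mt-Cytb (ENSMUSG00000064370), the cytochrome b of complex III, the values were 4340, 1700, 2657, 1655, 3156 and 1445 FPKM, with the same ordering. Among the membrane-arm subunits of complex I, mt-Nd1 stood at 3981, 1472, 2784, 1350, 2748 and 1192 FPKM. Its neighbour mt-Nd2 stood at 1796, 868, 1207, 770, 1325 and 692 FPKM. The proton-pumping subunit mt-Nd4 stood at 1409, 517, 964, 497, 947 and 427 FPKM. All 3 genes were higher in library 1 than in library 2 of each group.

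The pump subunit mt-Nd5 (chrM:11742-13565, plus strand) stood at 1454, 596, 717, 555, 1022 and 505 FPKM. The only protein-coding gene on the other strand, mt-Nd6 (chrM:13552-14070, minus strand), stood at 1254, 465, 995, 414, 830 and 409 FPKM. Both again were higher in library 1 of each group. The 2 genes overlap, and 10 of the 13 members overlap another gene in exons. The library kit named in the labels does not mark strand, so reads from either strand cannot be told apart.

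Among the low genes, mt-Co2, the complex IV subunit that takes electrons from cytochrome c, stood at 73.3, 17.1, 30.3, 13.1, 24.2 and 11.5 FPKM, and mt-Co3 at 27.6, 5.43, 10.96, 7.70, 11.1 and 4.52. The proton-channel subunit mt-Atp6 stood at 65.2, 8.66, 16.0, 6.79, 14.8 and 8.05 FPKM, and its partner mt-Atp8 at 21.5, 4.50, 12.4, 6.91, 12.5 and 6.88. WT replicate 1 was the highest library for these 4 genes. The complex I subunit mt-Nd3 stood at 3.88, 0.565, 2.91, 1.13, 1.88 and 0.961 FPKM, from 24, 3, 18, 7, 10 and 5 reads. For mt-Nd4l the values were 11.9, 2.87, 62.8, 5.51, 8.83 and 1.801 FPKM, from 63, 13, 332, 29, 40 and 8 reads. CKO replicate 1 was the highest library for mt-Nd4l and for no other mitochondrial member. These counts are small, and the 6 low genes together held only 0.00192 to 0.0126% of all reads.

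**Figure D1:**
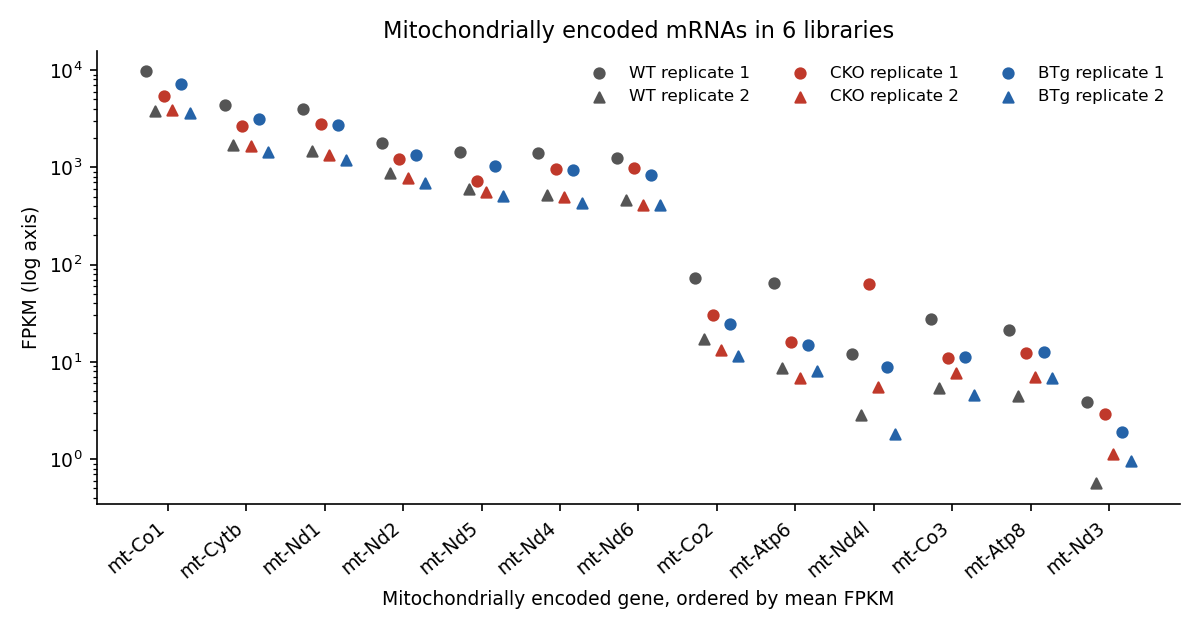
FPKM (log axis) of the 13 mitochondrially encoded mRNAs, ordered by mean, with 1 point per library; circles are the libraries numbered 1 and triangles those numbered 2. The 7 genes on the left stand at 409 FPKM or above in every library and the 6 on the right at 73.3 or below, and the circle lies above the triangle of the same colour for every gene.

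Of the 6 low genes, 5 have a near-identical copy in the nuclear genome over nearly their whole length. A stretch of 4663 bases on chromosome 1 (GRCm38, chr1:24611535-24616197, minus strand) carries 7 annotated unprocessed pseudogenes that match mitochondrial members at 99% identity or above. The match was 100% over 681 of the 684 bases of mt-Co2 (Gm28661), over 678 of the 681 bases of mt-Atp6 (Gm10925), over 783 of the 784 bases of mt-Co3 (Gm28437) and over 294 of the 297 bases of mt-Nd4l (Gm10222). For mt-Nd3 the copy Gm28438 had 1 substitution in 345 aligned bases. The gap of 233 bases between Gm10925 and Gm28661 equals the 233 bases between the matched parts of mt-Co2 and mt-Atp6 on the mitochondrial genome, where mt-Atp8 lies. No genome sequence was used here, so a copy of mt-Atp8 itself was not searched for.

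Only part of the abundant genes was covered at that identity. Gm28439 matched 876 of the 1378 bases of mt-Nd4 at 100%, and Gm29216 matched 483 of the 1545 bases of mt-Co1 at 99.8%. No copy at 99% identity or above was found among the annotated transcripts for mt-Cytb, mt-Nd1, mt-Nd2, mt-Nd5 and mt-Nd6.

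Here 2 pairs are printed to show how little of a short read could separate a gene from its copy. These and the matches above are sequences of the reference annotation (GRCm38), and whether they hold in NOD mice was not checked. The first pair is mt-Nd3 and Gm28438, 5′ to 3′ on the coding strand, with the single substitution (T3C, counted from 1 at the first base of mt-Nd3) in capitals, over the first 200 bases.
mt-Nd3 (chrM:9459-9658): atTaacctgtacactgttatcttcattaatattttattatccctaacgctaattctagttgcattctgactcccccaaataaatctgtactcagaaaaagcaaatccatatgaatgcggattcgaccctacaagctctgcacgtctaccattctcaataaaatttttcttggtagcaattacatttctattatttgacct
Gm28438 (chr1:24612920-24613119): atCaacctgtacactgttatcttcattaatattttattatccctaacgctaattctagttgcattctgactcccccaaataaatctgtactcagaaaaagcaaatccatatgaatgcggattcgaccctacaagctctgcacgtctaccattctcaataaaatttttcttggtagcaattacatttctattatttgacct
The second pair is mt-Nd4l and Gm10222, with no substitution, and with the 3 bases at the end of mt-Nd4l that the copy's annotation lacks in capitals.
mt-Nd4l (chrM:9877-10173): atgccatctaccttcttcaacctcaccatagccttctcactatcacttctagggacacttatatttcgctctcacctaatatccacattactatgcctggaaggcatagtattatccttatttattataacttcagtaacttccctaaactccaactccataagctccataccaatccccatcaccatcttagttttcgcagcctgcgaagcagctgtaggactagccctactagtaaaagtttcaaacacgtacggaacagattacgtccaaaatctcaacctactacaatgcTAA
Gm10222 (chr1:24612407-24612700): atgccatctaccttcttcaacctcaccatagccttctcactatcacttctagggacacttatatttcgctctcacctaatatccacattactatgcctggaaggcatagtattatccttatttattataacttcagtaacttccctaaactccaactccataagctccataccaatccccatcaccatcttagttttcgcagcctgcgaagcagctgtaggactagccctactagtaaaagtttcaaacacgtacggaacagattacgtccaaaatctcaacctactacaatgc

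Reads were also listed on the copies. Gm28438 had 331, 110, 349, 149, 256 and 97 reads, which is more than mt-Nd3 had in each library. Gm28437 had 375, 81, 415, 146, 185 and 63 reads, beside 385, 65, 153, 107, 133 and 53 on mt-Co3. Gm10925 had 369, 108, 179, 107, 1083 and 91 reads, beside 790, 90, 194, 82, 154 and 82 on mt-Atp6. Gm10222 had 53, 23, 41, 32, 71 and 27 reads, beside 63, 13, 332, 29, 40 and 8 on mt-Nd4l. Gm28661 had 312, 67, 124, 60, 106 and 106 reads, beside 892, 178, 369, 159, 253 and 118 on mt-Co2. For these 5 genes the copy thus held a sizeable part of the reads of the pair in most libraries. By contrast, the partial copy of mt-Nd4, Gm28439, had 26 to 96 reads beside 8800 to 34535 on mt-Nd4. How reads that match more than 1 place were counted is not given in the sources used here, and its part in the low values of the 6 genes was not tested. The levels of these 6 genes are therefore uncertain, while 5 of the 7 abundant genes have no such copy.

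**Figure D2:**
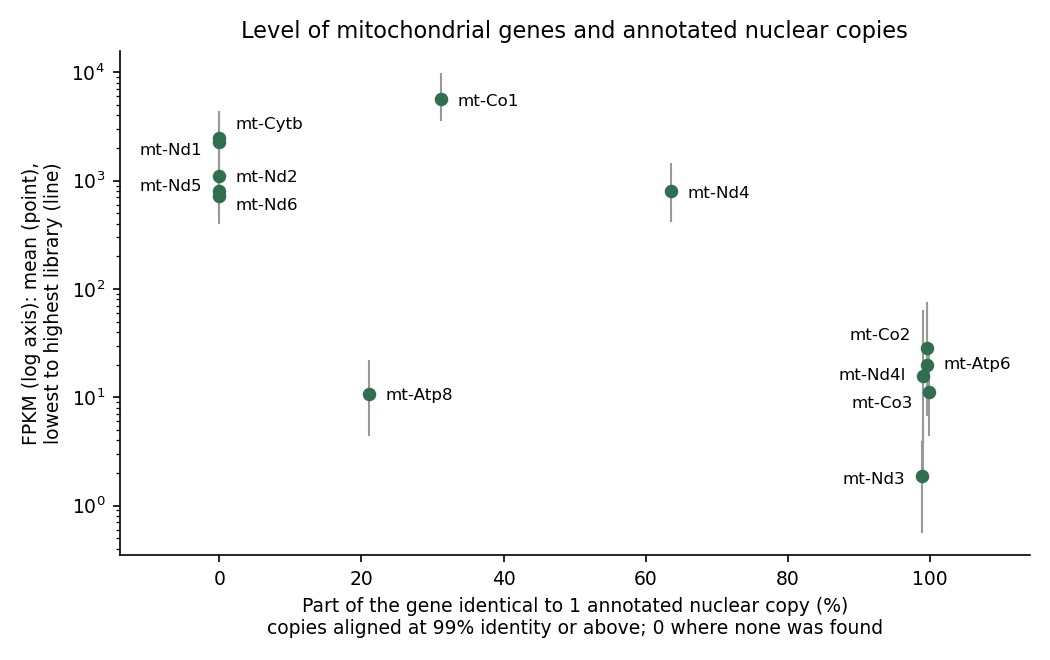
Mean FPKM over the 6 libraries (point, log axis) with the lowest and highest library (line), against the percentage of each mitochondrial gene that is identical to 1 annotated nuclear copy, counting copies aligned at 99% identity or above, with 0 where none was found. The 5 genes that match such a copy over nearly their whole length stand at 73.3 FPKM or below in every library, while mt-Co1 and mt-Nd4, matched in part, stand with the genes at 0; less similar copies are not drawn, such as Gm13340, which matches all 1545 bases of mt-Co1 at 97.6% identity; the match of mt-Atp8 is the end it shares with mt-Atp6.

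The nuclear members were expressed almost as a whole. At least 1 FPKM in at least 2 libraries, the requirement for the test, was met by 71 of 78: 34 of 35 in complex I, 8 of 8 in complex III, 13 of 18 in complex IV and 16 of 17 in complex V. Ndufa4 and Ndufa4l2 were counted in complex IV, where Ndufa4 is now placed. The 7 members below it were Atp5s, Cox4i2, Cox6a2, Cox7a1, Cox8b, Ndufa4l2 and Ndufs4. For Ndufs4 this reflects the length that the deposited values divide by, which is the genomic span with introns: the gene had 602 to 1628 reads per library, and per kilobase of its principal transcript it stood at 35.6 FPKM on average. Of the nuclear members 29 overlap another gene in exons, and 7 (Atp5g2, Atp5h, Atp5l, Atp5o, Cox7c, Ndufs3 and Uqcrb) have an annotated copy of at least 97% identity over at least 50% of the transcript, so their values are uncertain to that extent.

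Most of the other genes below the requirement are tissue-type forms of complex IV subunits. The general form Cox4i1, a regulatory subunit, stood at 50.5, 47.6, 59.3, 45.2, 50.4 and 38.7 FPKM, while its lung-type paralogue Cox4i2 had 0 to 3 reads per library. Cox6a1 stood at 76.9, 80.7, 101, 70.7, 80.1 and 61.2 FPKM, beside 0 to 18 reads on the muscle form Cox6a2. Cox7a2 stood at 30.3, 16.8, 43.2, 15.1, 23.1 and 12.9 FPKM, beside 10 to 33 reads on the muscle form Cox7a1. Cox8a stood at 76.8, 64.3, 110, 63.6, 69.6 and 50.3 FPKM, beside 0 to 4 reads on Cox8b. Ndufa4 stood at 26.7, 14.5, 31.2, 13.7, 18.2 and 11.4 FPKM, beside 0 to 4 reads on Ndufa4l2. In each pair the general form was the higher in all 6 libraries, also per kilobase of principal transcript.

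Cox6b2, known as the testis form of Cox6b, was the exception among tissue-type subunits. It stood at 7.21, 22.4, 17.5, 17.5, 6.90 and 11.1 FPKM, from 128 to 416 reads (ENSMUSG00000051811, chr7:4751792-4753094, minus strand, GRCm38, overlapping no other annotated gene in exons). Its partner Cox6b1 stood at 19.3, 12.2, 28.5, 12.1, 13.5 and 10.04 FPKM. Per kilobase of principal transcript, a scale for comparing genes that depends on the transcript chosen, Cox6b2 averaged 28.6 FPKM and Cox6b1 202. The 3 genes for the c subunit of the ATP synthase ring, which encode the same mature protein, averaged 13.8 (Atp5g1), 291 (Atp5g2) and 238 FPKM (Atp5g3) on that scale. The transcript taken for Atp5g1 has 4715 bases, beside 731 for Atp5g2 and 714 for Atp5g3, so its low level rests largely on that length. In reads per library, Atp5g1 had 675 to 1932, Atp5g2 2305 to 5149 and Atp5g3 1972 to 4462.

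Per kilobase of principal transcript, the highest nuclear member was Atp5b, the catalytic beta subunit of ATP synthase, with 488 FPKM on average, followed by Cox6a1 with 453. The medians over members were 66.1 FPKM in complex I, 108 in complex III, 144 in complex IV and 169 in complex V. As deposited, Atp5b stood at 524, 690, 757, 617, 608 and 504 FPKM. CKO replicate 1 was its highest library and BTg replicate 2 its lowest. By the deposited values, the highest members of the other complexes were Ndufb11 in complex I (61.3 FPKM on average), Uqcrq in complex III (80.3) and Cox7c in complex IV (111).

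The same libraries stood high or low for most members. Among the 71 nuclear members that met the requirement, CKO replicate 1 was the highest library for 60 (84.5%, against 23.0% of the 10798 genes) and BTg replicate 2 the lowest for 61 (85.9%, against 15.1%). This held in each complex: CKO replicate 1 was highest for 29 of 34 members of complex I, 6 of 8 of complex III, 11 of 13 of complex IV and 14 of 16 of complex V. BTg replicate 2 was lowest for 28, 7, 10 and 16 of them. The mitochondrial members shared the low library but not the high one: WT replicate 1 was highest for 12 of 13 and BTg replicate 2 lowest for 10 of 13. These counts describe single libraries and are no test of a group.

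As a whole, the nuclear set held 0.995, 0.812, 1.24, 0.752, 0.881 and 0.657% of all reads, and the mitochondrial set 3.10, 1.22, 1.85, 1.19, 2.25 and 1.09%. By group, the mitochondrial share was 2.16 ± 1.33% in WT, 1.52 ± 0.467% in CKO and 1.67 ± 0.820% in BTg (SD, n = 2 each), and the nuclear share was 0.903 ± 0.129%, 0.996 ± 0.345% and 0.769 ± 0.158%. For WT replicate 1 the exact Clopper-Pearson 95% interval of the mitochondrial share was 3.09 to 3.11%. Such intervals cover counting error only, which was far below the spread between libraries of a group. The groups overlapped in both shares. Library 1 had the higher share in all 3 groups: 2.54, 1.56 and 2.07 times that of library 2 for the mitochondrial set in WT, CKO and BTg, and 1.22, 1.65 and 1.34 times for the nuclear set.

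**Figure D3:**
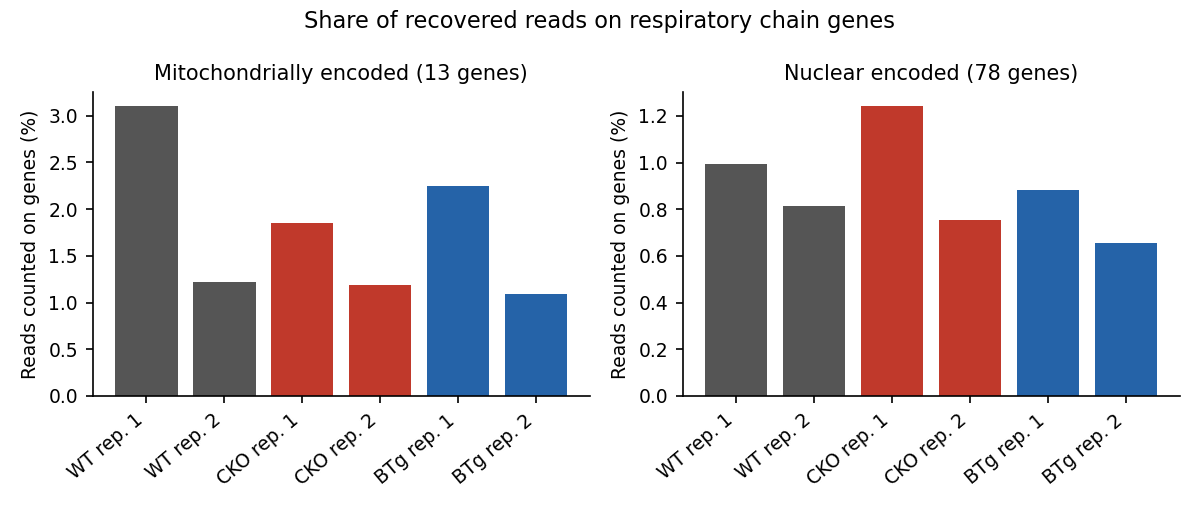
Percentage of each library's reads on the 13 mitochondrially encoded genes (left) and the 78 nuclear genes (right), 1 bar per library. The library numbered 1 is the higher of each group in both panels, with WT replicate 1 highest for the mitochondrial set (3.10%) and CKO replicate 1 for the nuclear set (1.24%).

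Between CKO and WT no member passed the test. With limma on log2(FPKM + 1) and a Benjamini-Hochberg adjusted p under 0.05, 0 of 13 mitochondrial and 0 of 71 nuclear members were called, against 0% of all 10798 genes tested. At an unadjusted p under 0.05 the counts were 0 and 0, against 4.2% of all genes, and limma voom on the recovered reads also called 0 members. The median log2 difference was -0.37 over the mitochondrial members (11 of 13 lower in CKO) and 0.13 over the nuclear members (59 of 71 higher), beside -0.03 over all genes. Both CKO libraries were above both WT libraries for 5 of 71 nuclear members, a smaller share than the 11.5% of all genes, and for 0 of 13 mitochondrial members.

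The sign of the nuclear median depended on CKO replicate 1. In the pair numbered 1 the median was 0.35, with 63 of 71 members higher in CKO, and in the pair numbered 2 it was -0.10, with 12 of 71 higher. Higher within both numbered pairs were 9 of 71, against 20.1% of all genes. Without CKO replicate 1 the median over nuclear members was -0.27, and without WT replicate 2 it was -0.00. The mitochondrial median was 0.40 without WT replicate 1 and -0.03 without CKO replicate 2. CKO replicate 1 is the library with the neutrophil and immunoglobulin signal given above, whose part in the difference was not tested.

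The largest positive differences among nuclear members were in Cox5a, a matrix-side subunit of complex IV, in Atp5k and in Cox6b2. Cox5a stood at 3.16, 4.59, 8.02, 4.24, 3.59 and 3.23 FPKM, a CKO minus WT difference of 0.51 (SE 0.32, limma adjusted p = 1). Atp5k, a small membrane subunit of ATP synthase, stood at 40.8, 34.5, 80.7, 31.8, 32.8 and 28.2 FPKM (0.43, SE 0.47, limma adjusted p = 1). In both, CKO replicate 1 was far above the rest and CKO replicate 2 stood among or below the WT libraries. For Cox6b2 the difference was 0.41 (SE 0.52, limma adjusted p = 1), with the 2 WT libraries on either side of CKO.

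The largest negative differences were in Cox7a2l, Ndufb8 and Ndufa6. Cox7a2l, which joins complexes III and IV into supercomplexes, stood at 25.6, 11.4, 13.3, 10.4, 20.1 and 11.3 FPKM (-0.51, SE 0.46, limma adjusted p = 1), and here WT replicate 1 and BTg replicate 1 were the high libraries. Ndufb8, an accessory subunit of complex I, stood at 23.0, 22.7, 25.3, 12.4, 23.3 and 18.1 FPKM (-0.35, SE 0.38, limma adjusted p = 1), with CKO replicate 2 alone low. Ndufa6 stood at 36.8, 20.1, 28.8, 18.6, 26.9 and 17.3 FPKM (-0.23, SE 0.42, limma adjusted p = 1), high in every library numbered 1.

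Between BTg and WT nearly all members lay lower in BTg, by amounts within the spread between libraries. Called were 0 of 13 mitochondrial and 0 of 71 nuclear members, against 0.0185% of all genes (2 of 10798), and 0 and 0 at an unadjusted p under 0.05, against 1.62%. The median difference was -0.39 over the mitochondrial members, all 13 of which were lower, and -0.24 over the nuclear members, of which 68 of 71 were lower, beside 0.02 over all genes. By complex the nuclear medians were -0.19 (I), -0.27 (III), -0.34 (IV) and -0.25 (V). Both BTg libraries were below both WT libraries for 10 of 71 nuclear members, near the 10.4% of all genes, and for 0 of 13 mitochondrial members.

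Unlike the CKO difference, the nuclear one had about the same size in both numbered pairs, though the labels do not say that a number marks anything shared. The nuclear median was -0.25 in the pair numbered 1 (54 of 71 lower in BTg) and -0.26 in the pair numbered 2 (70 of 71 lower). Lower within both pairs were 53 of 71, against 24.5% of all genes. Leaving out 1 library kept the nuclear median below 0, but brought it to -0.07 without WT replicate 1 and to -0.02 without BTg replicate 2. The mitochondrial median was 0.32 and 0.13 without these libraries. The 3 comparisons share libraries: WT enters this one and the one above. Transcript length moved with this difference too: across the 71 nuclear members Spearman's rho between log2 difference and principal transcript length was 0.41, and across all 8415 protein-coding genes tested it was 0.27, over genes, which are not independent replicates. Among all protein-coding genes with a principal transcript under 700 bases, 68.3% were lower in BTg within both pairs, beside 86.7% of the 30 nuclear members of that length. At 1200 bases or longer the shares were 20.8% and 55.6%, the latter of 18 members. The part of length in the difference was not tested.

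The smallest values in this comparison were in Cox6b2 (-0.51, SE 0.52), Uqcrb and Atp5g1, with a limma adjusted p of 1 for each. Uqcrb, which helps form the quinone site of complex III, stood at 22.6, 14.7, 38.5, 13.1, 16.8 and 9.60 FPKM (-0.49). Atp5g1 stood at 13.9, 15.6, 24.7, 13.5, 10.7 and 10.3 FPKM (-0.45), and for this gene both BTg libraries were below the other 4. The 3 members not lower were Uqcrc1, Ndufa10 and Ndufs7. Uqcrc1, a core subunit of complex III, stood at 23.2, 33.2, 29.9, 30.8, 33.2 and 30.1 FPKM (0.18). Ndufa10 stood at 6.22, 8.67, 9.63, 7.74, 7.17 and 8.32 FPKM (0.06), and Ndufs7, which carries an iron-sulfur cluster of complex I, at 12.1, 14.6, 14.4, 12.8, 14.6 and 12.5 (0.02). In these 3 genes the BTg libraries lay within the range of the WT libraries or at its upper edge.

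Between BTg and CKO the median over nuclear members was the largest of the 3 comparisons in size. Again 0 of 13 and 0 of 71 members were called, against 0.0185% of all genes, and 0 and 0 passed an unadjusted p under 0.05, against 8.79%; voom on the recovered reads gave 1 nuclear member at that unadjusted level. The median was -0.10 over the mitochondrial members (8 of 13 lower in BTg) and -0.37 over the nuclear members (68 of 71 lower), beside 0.06 over all genes. Both BTg libraries were below both CKO libraries for 14 of 71 nuclear members, near the 21.8% of all genes. Lower within both numbered pairs were 64 of 71, against 33.9% of all genes, with medians of -0.56 in the pair numbered 1 and -0.19 in the pair numbered 2. Among all protein-coding genes with a principal transcript under 700 bases this share was 59.8%, beside 93.3% of the members of that length. At 1200 bases or longer the shares were 34.2% and 83.3%, and the part of length was not tested. Without CKO replicate 1 the median was 0.01 over nuclear and 0.37 over mitochondrial members, and without BTg replicate 2 it was -0.15 and 0.45.

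**Figure D4:**
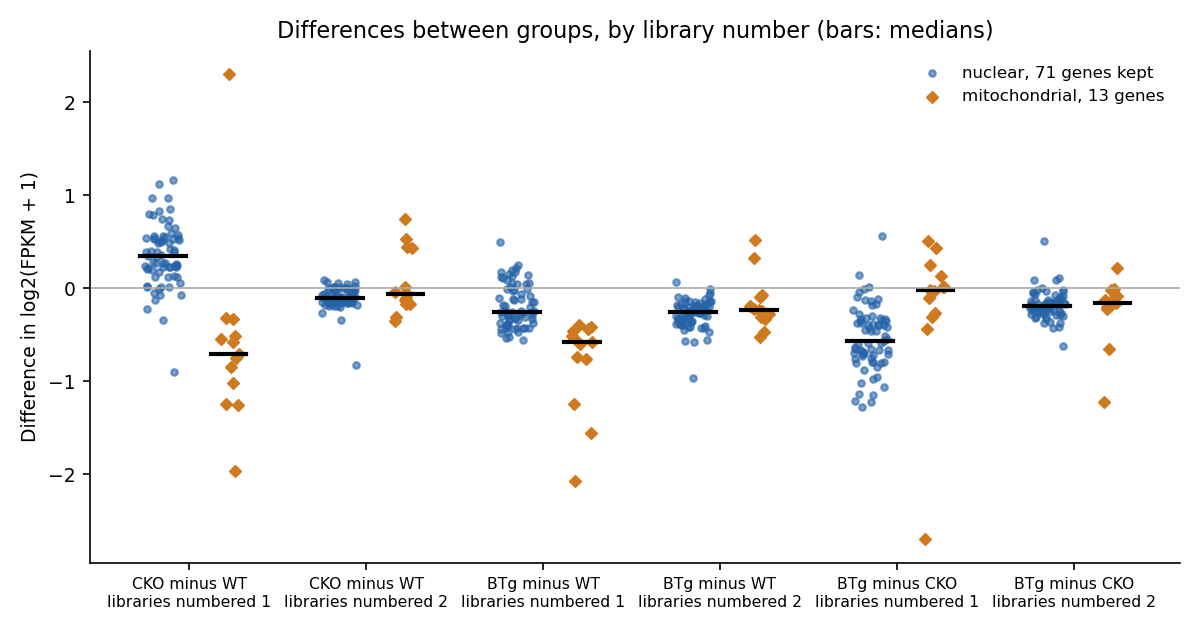
Difference in log2(FPKM + 1) for each of the 71 nuclear members (circles) and 13 mitochondrial members (diamonds), separately for the libraries numbered 1 and 2; black bars are medians. The nuclear median of CKO minus WT changes sign between the numbers (0.35 and -0.10), while that of BTg minus WT is -0.25 and -0.26.

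The smallest values were in Cox6b2 (-0.92, SE 0.52, limma adjusted p = 0.654), Uqcr11 (-0.79, SE 0.44, limma adjusted p = 0.654) and Uqcrb (-0.78, limma adjusted p = 0.712). Uqcr11, a small subunit of complex III, stood at 19.6, 18.7, 39.5, 16.1, 16.4 and 12.2 FPKM. BTg replicate 1 was slightly above CKO replicate 2, so the groups overlapped. The largest were in Cox7a2l (0.34, limma adjusted p = 0.820), Ndufb8 (0.20, limma adjusted p = 0.867) and Uqcrc1 (0.06, limma adjusted p = 0.953).

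The catalytic core subunits gave no call either. In the flavin and iron-sulfur arm of complex I, Ndufv1, which binds the flavin, stood at 22.2, 30.3, 33.3, 27.3, 25.2 and 26.4 FPKM. Ndufs1 stood at 8.33, 9.28, 10.2, 8.32, 8.14 and 7.54 FPKM, and Ndufs3 at 13.5, 12.9, 13.7, 13.6, 13.3 and 11.6. The 6 libraries stood close together in Ndufs3 and less so in Ndufs1, while Ndufv1 ran from 22.2 to 33.3 FPKM. Ndufv2 (3.03 to 7.60 FPKM) and Ndufs8 (10.4 to 26.1 FPKM) were spread more widely, with BTg replicate 2 lowest and CKO replicate 1 highest in both.

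In complex III, Uqcrc2, the other core protein, stood at 21.9, 15.4, 23.9, 13.5, 17.7 and 12.7 FPKM, and Uqcrfs1, the Rieske iron-sulfur protein, at 17.6, 18.7, 26.0, 16.7, 19.5 and 14.4. In complex IV, Cox5b stood at 70.2, 73.3, 123, 66.0, 58.5 and 54.4 FPKM, with both BTg libraries below the other 4. In the catalytic head of ATP synthase, Atp5a1 stood at 72.6, 81.3, 97.1, 73.0, 74.8 and 64.5 FPKM and Atp5c1 at 13.3, 10.4, 15.5, 9.49, 11.9 and 8.39. CKO replicate 1 was the highest library for all 5 genes.

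A larger division lay between the libraries numbered 1 and 2. All 13 mitochondrial members were lower in library 2 of every group, as were 49 of 71 nuclear members, against 14.9% of all genes. Higher in library 2 of every group were 0 of 13 and 1 of 71 members, and 4939 of the 10798 genes. The median difference, number 2 minus number 1, was -1.45 in WT, -0.87 in CKO and -1.02 in BTg for the mitochondrial members. For the nuclear members it was -0.30, -0.78 and -0.40, beside 0.20, 0.25 and 0.10 over all genes. In one limma fit with group and number as terms the medians were -1.19 and -0.52, beside 0.19 over all genes. At an unadjusted p under 0.05, 13 of 13 and 40 of 71 members were lower in number 2, against 7.46% of all genes lower and 30.6% in either direction. After adjustment 0 members passed, against 0% of all genes, with a lowest limma adjusted p of 0.112; limma voom also called 0 members. The labels do not say what a number stands for, and outside the brackets the titles of both BTg libraries end in 1.

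Among the abundant mitochondrial genes the fitted differences were close together: from -1.24 for mt-Nd6 (SE 0.16, limma adjusted p = 0.112) to -0.88 for mt-Nd2 (SE 0.16, limma adjusted p = 0.112). The low genes ranged from -2.28 (mt-Nd4l) to -1.02 (mt-Nd3). The mitochondrial rRNAs, which are no members, moved alike: they took 0.0912, 0.0294, 0.0732, 0.0378, 0.0591 and 0.0236% of reads. Ribosomal protein genes, a nuclear class of abundant transcripts, took 16.3, 8.10, 10.96, 7.20, 11.4 and 7.18%. The nuclear-retained RNAs listed (5 of 5 in the table, mainly Malat1) summed to 2058, 2423, 915, 2736, 1870 and 2895 FPKM, higher in library 2 of each group. Erythroid markers (9 of 10 in the table) were also higher in library 2 of each group, summing to 103, 1127, 430, 692, 112 and 183 FPKM. The part of RNA handling or of erythroid cells in these differences was not tested.

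Within the nuclear set the fitted medians were -0.44 in complex I, -0.64 in complex III, -0.73 in complex IV and -0.55 in complex V. The smallest values were in Ndufb11, Cox7a2 and Atp5mpl. Ndufb11, a membrane-arm subunit of complex I, stood at 95.5, 39.8, 82.0, 40.6, 73.0 and 37.1 FPKM (-1.07, SE 0.16, limma adjusted p = 0.112). Cox7a2, whose values stand above, had -1.03 (SE 0.20, limma adjusted p = 0.112). Atp5mpl, a small protein attached to ATP synthase, stood at 23.6, 11.4, 26.7, 10.5, 16.2 and 9.37 FPKM (-0.997, SE 0.16, limma adjusted p = 0.112). In all 3, every library numbered 1 was above every library numbered 2.

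At the other end stood Cox6b2 (0.71, SE 0.32, limma adjusted p = 0.207), Uqcrc1 (0.14, limma adjusted p = 0.640) and Ndufa10 (0.11, limma adjusted p = 0.688). Cox6b2 was the 1 nuclear member higher in library 2 of all 3 groups, although in CKO the libraries were level (378 and 377 reads). It was also among the 3 most extreme members in each group comparison, and its 2 WT libraries lay at 7.21 and 22.4 FPKM.

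The difference between numbers went with transcript length. Across the 71 nuclear members Spearman's rho between number 2 minus number 1 and principal transcript length was 0.37 in WT, 0.47 in CKO and 0.35 in BTg, and across the 8415 protein-coding genes tested 0.29, 0.44 and 0.42. With length classes chosen after the values were seen, 25 of 30 members under 700 bases were lower in number 2 of all groups, as were 16 of 23 members of 700 to under 1200 bases and 8 of 18 of 1200 bases or longer. Among all protein-coding genes the shares were 65.2, 46.0 and 11.4% in these classes, below the members' 83.3, 69.6 and 44.4%. The class medians over members were -0.57, -0.30 and 0.05 in WT, -0.98, -0.70 and -0.63 in CKO and -0.45, -0.37 and -0.21 in BTg, so the longest class lay below 0 in CKO and BTg. The part of length was not tested further.

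**Figure D5:**
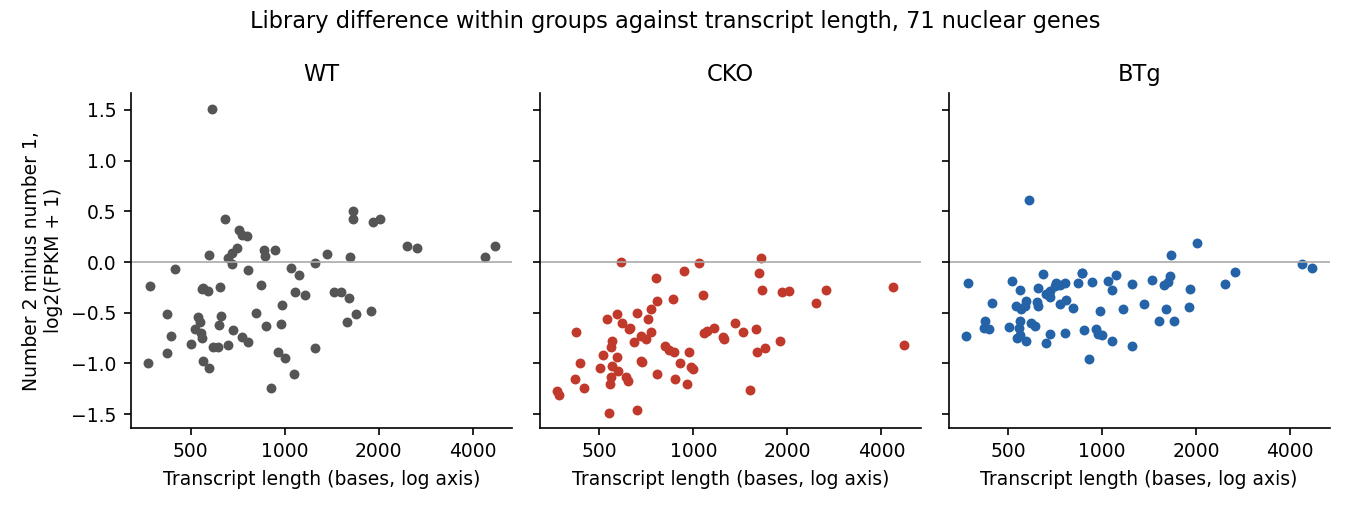
Difference between library 2 and library 1 of the same group (log2 scale) for the 71 nuclear members, against the length of the principal transcript (log axis), with 1 panel per group. Short transcripts lie mostly below 0, and longer ones tend to lie higher (Spearman's rho 0.37, 0.47 and 0.35), although in CKO most points of every length lie below 0; the point highest in the WT and BTg panels is Cox6b2.

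The balance between the mitochondrial and nuclear sets varied between libraries. The log2 ratio of their geometric mean FPKM, which does not depend on library scaling, was 3.82, 2.31, 2.82, 2.54, 3.18 and 2.47. It was higher in library 1 than library 2 by 1.51 in WT, 0.28 in CKO and 0.72 in BTg. With only the 5 mitochondrial members that have no near-identical nuclear copy the differences were 0.99, -0.01 and 0.64. WT replicate 1 thus had the highest ratio in either form, and the CKO libraries the closest pair. With all mitochondrial members the groups overlapped. With the 5 members, WT and BTg overlapped, but both CKO libraries (5.758 and 5.764) lay below them. The lower WT library stood at 5.781 and the lower BTg library at 5.825, and these gaps were not tested.

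Of the other genes of the pathway, grouped in lists, 0 were called in any comparison. Complex II (Sdha, Sdhb, Sdhc and Sdhd, 4 of 4 tested) had medians of 0.05 (CKO minus WT) and -0.02 (BTg minus WT). Its small membrane subunit Sdhd stood at 13.2, 11.9, 24.9, 11.1, 11.8 and 8.63 FPKM. For cytochrome c, Cyc1 and the acyl carrier Ndufab1 (3 of 3 tested) the medians were 0.23 and -0.06. Assembly factors (37 of 47 tested) had medians of 0.03 and -0.07. Proteins that import others into mitochondria (22 of 25 tested) had medians of 0.09 and -0.11. In each of these 4 lists the CKO minus WT median was above 0 in the pair numbered 1 and below 0 in the pair numbered 2.

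The mitochondrial ribosomal proteins, which make the 13 mitochondrially encoded proteins, had medians of the same sign as the nuclear members: of 73 tested, 54 were higher in CKO than WT (median 0.10) and 57 lower in BTg than WT (median -0.13). For CKO against WT their median was 0.28 in the pair numbered 1, which holds CKO replicate 1, and -0.08 in the pair numbered 2. In BTg against CKO 64 of 73 were lower (median -0.25), without a call. Between numbers their median was -0.23, with 35 lower in library 2 of all groups. Mrpl51, a protein of the large subunit, stood at 24.7, 29.2, 57.3, 27.2, 21.6 and 20.4 FPKM, with CKO replicate 1 alone high (BTg minus CKO -0.88, SE 0.39, limma adjusted p = 0.589).

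Of 31 genes that copy, maintain or process mitochondrial DNA and RNA, 27 were tested. Their medians were -0.06 in BTg minus WT (17 of 27 lower) and -0.05 in BTg minus CKO (14 of 27 lower), of the same sign as the nuclear members. They were -0.04 in CKO minus WT and 0.08 in number 2 minus number 1, of the other sign. Polrmt, the mitochondrial RNA polymerase, stood at 12.1, 18.3, 8.95, 16.8, 17.9 and 21.8 FPKM. It was higher in library 2 of every group, opposite to the mitochondrial mRNAs, but so were 4939 of the 10798 genes. Among regulators of respiratory genes 7 of 8 were tested, with a median of 0.24 between numbers, beside 0.19 over all genes. Of them 0 were lower in library 2 of all groups, against 14.9% of all genes. Esrra, a nuclear receptor that activates such genes, stood at 5.43, 6.33, 4.90, 6.10, 6.78 and 8.37 FPKM, with both BTg libraries above the other 4 (BTg minus WT 0.31, SE 0.23, limma adjusted p = 1). Both BTg libraries were above both WT libraries for 1589 of the 10798 genes.

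In the list of ATP and ADP exchangers, inhibitors and uncouplers 7 of 7 were tested, and all 7 were higher in CKO than in WT (median 0.21). The median was 0.40 in the pair numbered 1, which holds CKO replicate 1, and -0.14 in the pair numbered 2. Atpif1, the inhibitor of ATP synthase run in reverse, stood at 19.3, 27.7, 60.7, 21.03, 15.0 and 12.7 FPKM. Both BTg libraries were below the other 4, and CKO replicate 1 was far above. It was the only gene of these lists past an unadjusted p under 0.05 in a comparison between groups. That difference, BTg minus CKO, was -1.32 (SE 0.51, limma unadjusted p = 0.0431, limma adjusted p = 0.553). Slc25a5, the main exchanger of ATP and ADP in dividing cells, stood at 190, 206, 361, 187, 172 and 150 FPKM, in the same order of groups. Cell cycle genes (14 of 14 in the table) summed to 262, 540, 758, 475, 244 and 260 FPKM, and their part was not tested.

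The promoters of the nuclear members were searched for motifs of factors known to control respiratory genes. RefSeq promoter windows (GRCm38.p6, 250 bases before to 50 after the start, 300 in all) were matched by symbol for 62 of the 78 members. The NRF-1 motif core GCATGCGC, on either strand, was in the windows of 9 of 62 members (14.5%) against 3.05% of 27025 genes. The YY1 core AAGATGGC was in 9 (14.5%) against 3.19%, and the ETS core CCGGAAG, bound by GABP among others, in 14 (22.6%) against 9.93%. For the Blimp-1 core AGNGAAAG the count was 7 (11.3%) against 9.91% of all genes. These counts describe letters, not bound sites.

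Atp5k and Uqcr11, among the members with the largest differences above and with matches for both a respiratory motif and the Blimp-1 core, are printed to show how the motifs lie. Each run covers bases 250 to 31 before the RefSeq start, 5′ to 3′ toward the gene, with matches in capitals. In Atp5k these are the Blimp-1 core on the opposite strand and, after 3 bases, overlapping NRF-1 cores on both strands. In Uqcr11 they are the Blimp-1 core on the opposite strand and, after 5 bases, the ETS core. The searched windows also held an ETS core in Atp5k and an NRF-1 core in Uqcr11, which do not lie within the printed runs.
Atp5k (chr5:108434430-108434649, minus strand): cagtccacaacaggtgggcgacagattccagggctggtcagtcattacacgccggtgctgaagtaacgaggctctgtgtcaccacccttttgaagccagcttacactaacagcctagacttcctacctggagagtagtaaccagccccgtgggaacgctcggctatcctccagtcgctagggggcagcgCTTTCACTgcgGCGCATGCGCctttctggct
Uqcr11 (chr10:80406852-80407071, minus strand): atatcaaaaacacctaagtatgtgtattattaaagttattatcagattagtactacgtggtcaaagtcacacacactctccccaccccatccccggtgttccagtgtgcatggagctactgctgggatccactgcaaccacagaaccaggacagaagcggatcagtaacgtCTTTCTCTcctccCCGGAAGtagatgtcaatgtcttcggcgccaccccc
Both genes, chosen with their differences known, stood highest in CKO replicate 1 and lowest in BTg replicate 2. Among all 71 nuclear members tested, counted without regard to motifs, CKO replicate 1 was highest for 60 and, in a separate count, BTg replicate 2 lowest for 61. In BTg against WT the difference was -0.29 for Atp5k and -0.41 for Uqcr11, with both BTg libraries below both WT libraries and no call. Such a separation was seen in 10.4% of all genes. For the other members with a Blimp-1 core (Atp5d, Cox7a1, Ndufa7, Ndufb6 and Ndufs3) the BTg and WT libraries overlapped. A part of the motif in these differences was not tested.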

How the data were processed

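TRIzol RNA was sequenced from NEBNext Ultra libraries, per the labels' protocols. The submitters' processing notes name GRCm38, Trimmomatic 0.38, HISAT2 2.1.0 and featureCounts 1.6.0. Annotation, strand and multi-mapping settings were not given in the sources used here. Gene values were deposited by the authors as FPKM for 28914 genes, all matched to GENCODE M21. Taking as gene length the median over transcripts of their genomic span, all values gave whole reads within 0.01, so the deposited FPKM divide by that span, introns included. This does not alter the ratio of 1 gene between libraries, but it does alter levels between genes and which genes pass a minimum.

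Genes that reached 1 FPKM in 2 or more libraries (10798) entered 1 limma fit (R 4.3.3, limma 3.58.1, trend) on log2(FPKM + 1) over all 6 libraries, with Benjamini-Hochberg adjustment over all genes. Differences are on that scale, which understates changes of low genes. The fit was tested on simulated data, in the order CKO minus WT, BTg minus WT and BTg minus CKO. Of 67 genes changed 2-fold it recovered only 4, 6 and 2, and of 67 changed 4-fold 55, 54 and 50. False calls were 8, 10 and 5 of 10798 genes. The simulated data gave 133, 135 and 122 calls over all genes, against 0, 2 and 2 in the real data. Many calls ease the adjusted threshold. Standard errors of the group differences ran from 0.55 (mt-Nd2) to 1.21 (mt-Nd4l) among mitochondrial members. The simulated recovery may thus exceed that for the members. A lack of calls therefore says little about differences of 2-fold or less, and for mitochondrial members it does not exclude 4-fold differences either. Copies were sought with blastn 2.17.0 against the annotated transcripts. Members, lists and tests were chosen with earlier results of these data known. Values per library are given for every mitochondrial member, the 3 nuclear members with the largest and the 3 with the smallest difference per comparison, paralogous forms, core subunits and the extremes of level in each complex, and in the other lists for up to 3 genes per comparison with the smallest p and no overlap; not all are printed. Replicate numbers come from the bracketed column names. Alternatives were other pseudocounts, filters, scalings and lengths, voom on recovered reads, a replicate block and leaving out each library. Figures were drawn with matplotlib 3.10.9.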

Additional observations from a re-analysis of the deposited data

Results flagged for a closer look

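Reads were listed on nuclear copies of mitochondrial genes, which are no members and enter no comparison, and in 2 of them BTg replicate 1 stood above both WT libraries. Gm10925, the copy of mt-Atp6, had 1083 reads there, against 369 and 108 in WT and 91 in BTg replicate 2. Gm10222, the copy of mt-Nd4l, had 71 reads there, against 53 and 23 in WT and 27 in BTg replicate 2. The genes themselves had 154 (mt-Atp6) and 40 reads (mt-Nd4l) in BTg replicate 1. Another copy stood out in WT replicate 1: Gm29216, the partial copy of mt-Co1, had 1052 reads there and 20 to 88 in the other libraries.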

How the results depend on the processing

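No alternative called a member. Under other pseudocounts, filters, scalings, lengths and voom each set's median kept its sign: CKO minus WT ran from -0.38 to -0.14 (mitochondrial) and from 0.05 to 0.15 (nuclear), BTg minus WT from -0.45 to -0.24 and from -0.30 to -0.19, BTg minus CKO from -0.16 to -0.02 and from -0.43 to -0.26, and number 2 minus number 1 from -1.41 to -0.64 and from -0.73 to -0.37. Leaving out 1 library gave, in the same order, -1.05 to 0.40 and -0.27 to 0.54, -1.12 to 0.32 and -0.44 to -0.02, -0.56 to 0.45 and -0.79 to 0.01, and -1.30 to -0.90 and -0.59 to -0.36. Where that leaves an arm with 1 library, it is assumed to vary like the others.

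With a replicate block on the library number the medians were the same, 0 members were called, and 1, 1 and 1 mitochondrial and 0, 1 and 3 nuclear members had an unadjusted p under 0.05 (CKO minus WT, BTg minus WT, BTg minus CKO). The correlation across genes of the difference between numbers was 0.17 (WT with CKO), 0.47 (WT with BTg) and 0.46 (CKO with BTg), but the labels do not say that a number marks anything shared.

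Among the 24 named nuclear values, 268 of 275 alternative values and 125 of 144 with a library left out kept their sign. For CKO minus WT, leaving out 1 library gave -1.06 to 0.047 for Cox7a2l, -0.83 to 0.14 for Ndufb8, -0.64 to 0.19 for Ndufa6, -0.23 to 1.08 for Atp5k and -0.34 to 1.17 for Cox6b2. For BTg minus WT it gave -1.26 to 0.25 for Cox6b2, -0.070 to 0.43 for Uqcrc1, -0.15 to 0.27 for Ndufa10 and -0.11 to 0.15 for Ndufs7. For BTg minus CKO it gave -0.052 to 0.72 for Cox7a2l, -0.29 to 0.69 for Ndufb8 and -0.012 to 0.13 for Uqcrc1, and for number 2 minus number 1 it gave -0.049 to 0.27 for Uqcrc1 and -0.046 to 0.31 for Ndufa10. With median-of-ratios scaling and with totals without mitochondrial, immunoglobulin and ribosomal protein genes, Ndufs7 in BTg minus WT was -0.017 and -0.037, and between numbers Uqcrc1 was -0.087 and -0.0011 and Ndufa10 -0.094 and -0.015 (-0.044 with quantile normalization).

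Of totals without those classes, the mitochondrial set held 3.89, 1.37, 2.31, 1.32, 2.63 and 1.20% and the nuclear set 1.25, 0.908, 1.55, 0.838, 1.03 and 0.722%, by construction more. The log2 ratio of the sets was 6.77, 5.78, 5.76, 5.76, 6.46 and 5.83 with only mitochondrial members that have no near-identical copy, 2.33, 0.81, 1.35, 1.04, 1.71 and 0.96 with merged exon length, and in CKO 2.54 and 2.26 with nuclear members of at least 5 FPKM on average. Depth limits genes with few reads, such as mt-Nd3 with 3 to 24.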
